A study of Capra hircus with 9 samples.

Results

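LOC102181752 is the goat gene that the deposited table describes as a prolactin-inducible protein homolog. It was represented by 1 transcript, XM_005679548.3, of the 52739 in the table, and by 1 gene of 22425 after transcripts were summed to genes. The gene was selected on measured values of these libraries, namely its high counts in the glands of the older goats, so its levels against the youngest group are given as a description with no test. RNA was sequenced from the submandibular glands of 9 healthy female Lubo goats with a common husbandry. Each animal gave 1 library, and 3 animals were taken at 1 month, 3 at 12 months and 3 at 24 months of age. No group received an experimental treatment, and all animals were fasted and then given xylazine, a sedative, before the tissue was taken. The libraries held between 11546808 and 24901065 expected counts, so that 3 counts corresponded to 0.146 to 0.190 CPM (expected counts scaled to a common library size). The scaling used trimmed mean of M-values (TMM) sizes over the 9 libraries.

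Prolactin-inducible protein (PIP), also known as gross cystic disease fluid protein, is a small secreted glycoprotein of saliva, tears, sweat and other fluids of exocrine glands. In human breast cell lines its transcript is induced by prolactin, and the protein binds zinc-alpha-2-glycoprotein, actin and bacteria of the mouth. In salivary glands PIP is made by acinar cells, the cells that form and release the primary saliva. MUC19, the gene set beside it here, encodes a large gel-forming mucin of mucous acinar cells.

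The 1-month group was not uniform, and the library labelled 1-month replicate 2 went against its gland label in its acinar markers. The summed level of 5 acinar markers (AQP5, SLC12A2, BHLHA15, LPO and ZG16B) was 63.4 CPM in that library, against 14384 and 7538 CPM in the other 1-month libraries. At 12 months the sum ranged from 39754 to 55633 CPM and at 24 months from 51241 to 65534 CPM. The 7 duct markers summed to 344, 139 and 271 CPM in 1-month replicates 1, 2 and 3. The 5 markers of myoepithelial cells summed to 414, 146 and 367 CPM. Both sums were thus reduced far less in replicate 2 than the acinar sum. The 8 thymus markers summed to 2112, 5396 and 901 CPM in 1-month replicates 1, 2 and 3, and to at most 1.63 CPM in any older library. The 10 markers of T and B cells summed to 1460, 6547 and 1032 CPM at 1 month and to between 33.7 and 51.8 CPM in the 6 older libraries. Thymus and lymphocyte transcripts were thus highest in the library with the lowest acinar sum, and they were also present in both other 1-month libraries. Means, folds and list counts that rest on the 1-month group are therefore given with and without replicate 2. The part of these transcripts in the difference between ages was not tested. In whole-gland RNA, fewer cells of a type and less RNA per cell cannot be told apart.

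**Figure D1:**
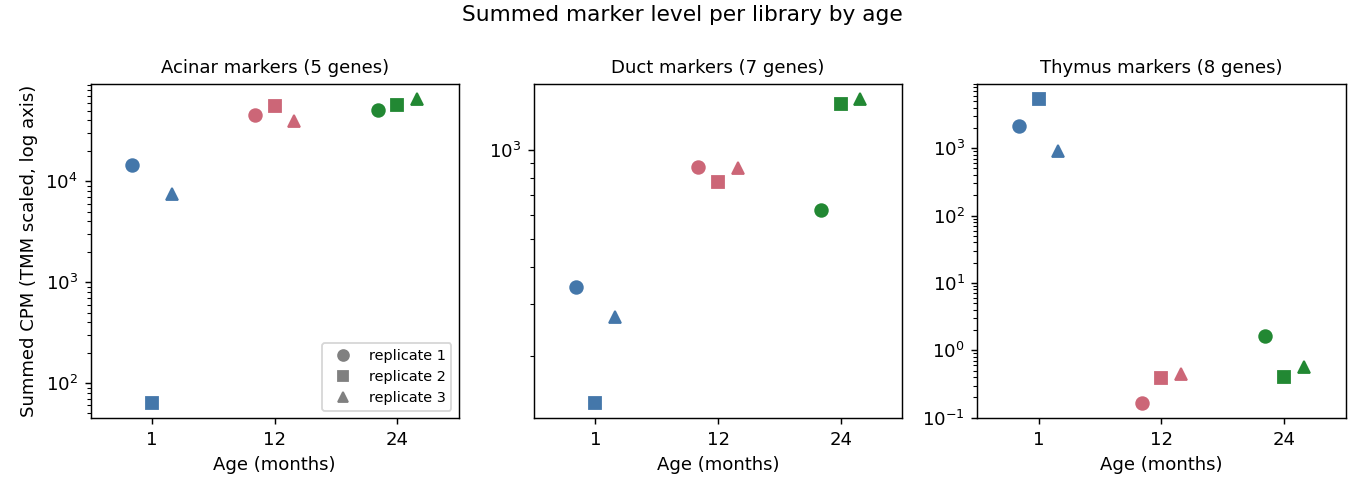
Summed CPM (TMM scaled, log axes) of 5 acinar, 7 duct and 8 thymus marker genes by age in months, with 1 point per library and marker shapes for replicates. The square at 1 month, replicate 2, is lowest for acinar (63.4 CPM) and duct markers (139 CPM) and highest for thymus markers (5396 CPM). The older libraries hold at most 1.63 CPM of thymus markers.

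LOC102181752 was among the most counted genes of the older glands and differed widely between ages. At 1 month its expected counts were 50372, 58.65 and 50981 in replicates 1, 2 and 3. At 12 months they were 612118, 706331 and 543599. At 24 months they were 253074, 492395 and 225146. The lowest count belonged to the library with few acinar transcripts, and every 12-month count was above every 24-month count.

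After scaling, the 1-month libraries held 3158, 3.03 and 3222 CPM, the 12-month libraries 34060.1, 38845 and 29255 CPM, and the 24-month libraries 13777, 23942 and 11521 CPM. The 3 ages did not overlap: the lowest 12-month library lay 1.22-fold above the highest 24-month library, and the lowest 24-month library lay 3.58-fold above the highest 1-month library. Within 24 months, replicate 2 stood 1.74-fold above replicate 1, whereas 1-month replicates 1 and 3 differed by 1.02-fold. Mean levels were 2127 ± 1840 CPM at 1 month (SD, n = 3; 3190 CPM without replicate 2, n = 2), 34053 ± 4795 CPM at 12 months (SD, n = 3) and 16413 ± 6617 CPM at 24 months (SD, n = 3). The 12-month mean was 16.0 times the 1-month mean, or 10.7 times without 1-month replicate 2. The 24-month mean was 7.72 times the 1-month mean, or 5.15 times without that library. These folds describe the choice of the gene and were not tested.

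**Figure D2:**
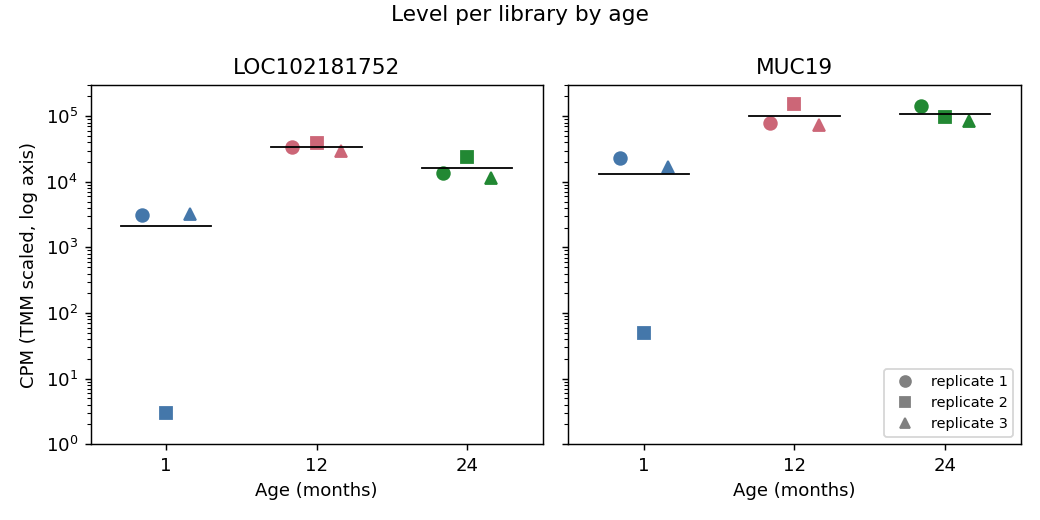
CPM (TMM scaled, log axis) of LOC102181752 and MUC19 against age in months, with 1 point per library, marker shapes for replicates and a line at the mean of each age. For LOC102181752 the 12-month points (29255 to 38845 CPM) lie above the 24-month points (11521 to 23942 CPM), whereas for MUC19 the older ages overlap, and replicate 2 at 1 month is far below the others for both genes.

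As a share of all counts in a library, LOC102181752 took 0.426%, 0.000334% and 0.442% at 1 month. The share of 1-month replicate 2 had a 95% Wilson interval of 0.000260% to 0.000433%, which covers counting error only. At 12 months the shares were 3.18%, 3.35% and 2.98%, and at 24 months they were 1.13%, 1.98% and 1.02%. The order of the ages was the same on this scale. The contrast with the youngest glands was smaller here: without 1-month replicate 2, the mean share was 7.31 times higher at 12 months and 3.17 times higher at 24 months. The gene ranked 10, 11624 and 9 by counts in the 1-month libraries, 3 in each 12-month library, and 8, 6 and 8 in the 24-month libraries. These ranks compare counts that are not divided by transcript length.

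The contrast between 12 and 24 months was not used to choose the gene and was tested. LOC102181752 had a log2 fold change of −0.999 (SE 0.332) at 24 months against 12 months in edgeR's quasi-likelihood fit. Its unadjusted p was 0.0152 and its Benjamini-Hochberg adjusted p was 0.458 over 14742 genes (edgeR), so the difference did not pass the test although the groups did not overlap. Calls required an edgeR adjusted p below 0.05 together with a log2 fold change beyond 2 in size, and 0 of 14742 genes (0%) were called between these ages. At an unadjusted p under 0.05 there were 1506 genes, among which LOC102181752 held place 288 by p. DESeq2 called 15 genes in this comparison, and gave LOC102181752 a log2 fold change of −1.04 with an adjusted p of 0.144. The adjusted p ranged from 0.104 to 0.886 when 1 library was left out at a time.

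Of 9 marker lists, plasma cell markers and markers of T and B cells also did not overlap between 12 and 24 months. The share of all genes without overlap was not counted, so this is a description only. With 3 against 3 libraries, full separation cannot give an exact permutation p below 0.1. The 5 plasma cell markers (JCHAIN, MZB1, TNFRSF17, DERL3 and SDC1) summed to between 2565 and 2924 CPM at 12 months and between 890 and 1876 CPM at 24 months. The T and B cell markers ranged from 33.7 to 38.6 CPM at 12 months and from 43.0 to 51.8 CPM at 24 months. Acinar marker sums overlapped between these ages, but ZG16B made up most of each sum. ZG16B alone was at 30995 to 45576 CPM at 12 months and 40194 to 45555 CPM at 24 months. Of the acinar markers only SLC12A2 did not overlap, at 2532 to 3540 CPM at 12 months and 1337 to 2037 CPM at 24 months. The part of acinar cells in the lower level of LOC102181752 at 24 months was not tested.

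MUC19 was also higher in each 12- and 24-month library than in any 1-month library, but its 12- and 24-month levels overlapped. Its levels were 23073, 50.2 and 16939 CPM at 1 month. They were 78485, 152784 and 73133 CPM at 12 months and 141876, 95782 and 83870 CPM at 24 months. The library labelled 1-month replicate 2 was again the lowest. The shares of counts were 3.11%, 0.00554% and 2.32% at 1 month, 7.32%, 13.2% and 7.45% at 12 months, and 11.6%, 7.91% and 7.44% at 24 months. MUC19 had a log2 fold change of 0.12 (SE 0.363) at 24 months against 12 months, with an adjusted p of 0.867 in edgeR. MUC19 was made of 2 transcripts, and TCONS_00017200 held 78.0% to 91.9% of its counts in every library.

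The ratio of both genes within a library does not depend on library scaling. For every 100 counts of MUC19 there were 13.7, 6.02 and 19.0 counts of LOC102181752 at 1 month, 43.4, 25.4 and 40.0 at 12 months, and 9.71, 25.0 and 13.7 at 24 months. The lowest 12-month ratio and the highest 24-month ratio, both of replicate 2, were close to each other. The geometric means were 11.6 at 1 month (16.1 without replicate 2), 35.3 at 12 months and 14.9 at 24 months. The ratio was 2.37 times higher at 12 than at 24 months, a log2 difference of −1.24 at 24 months, with a two-sided exact permutation p of 0.1, the smallest that 3 against 3 libraries can give. Without 1-month replicate 2 the 24-month ratio was 0.926 times the 1-month ratio, which was not tested.

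The reference gene mattered for this ratio. Against ZG16B, a secreted lectin of salivary acinar cells, there were 24.4, 33.7 and 48.8 counts of LOC102181752 per 100 at 1 month, 107, 85.2 and 94.4 at 12 months, and 33.0, 52.6 and 28.7 at 24 months. The 12-month ratios were the highest there and did not overlap with those of 24 months (log2 difference −1.37, exact permutation p = 0.1). Against SLC12A2, the basolateral sodium-potassium-chloride cotransporter that loads acinar cells with chloride, the 24-month libraries held 6.76, 17.9 and 8.28 counts of LOC102181752 per count and the 12-month libraries 13.5, 12.6 and 8.26. These ranges overlapped, with a log2 difference of −0.16 (exact permutation p = 0.9). SLC12A2 itself was at 2532 to 3540 CPM at 12 months and 1337 to 2037 CPM at 24 months. ZG16B, SLC12A2 and the other stand-ins were chosen after the data were examined.

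**Figure D3:**
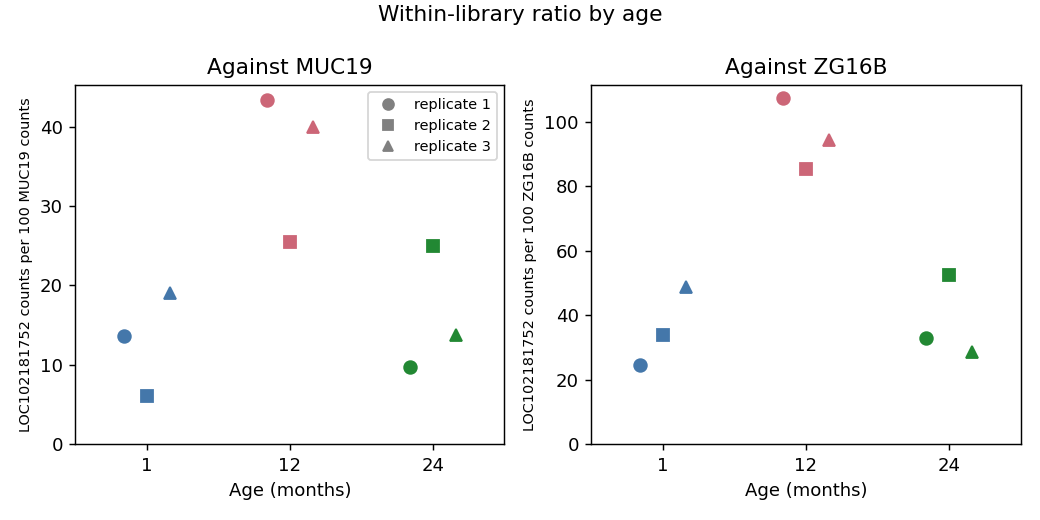
Counts of LOC102181752 per 100 counts of MUC19 (left) and per 100 counts of ZG16B (right) against age in months, with 1 point per library and marker shapes for replicates. The 12-month points are the highest against both genes, at 25.4 to 43.4 per 100 MUC19 and 85.2 to 107 per 100 ZG16B, and replicate 2 at 24 months (25.0) sits just below replicate 2 at 12 months (25.4) against MUC19.

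As a description, Pearson's r between LOC102181752 and MUC19 on log2(CPM + 1) was 0.985 over the 9 libraries (Spearman's rho 0.717). It was 0.851 over 8 libraries without 1-month replicate 2 (rho 0.595) and −0.00982 over the 6 older libraries (rho 0.0857). All points share the library scaling, and the age groups are separate clusters.

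Among 9835 genes with a mean of at least 10 CPM, the 10 whose profile over 9 libraries was most like that of LOC102181752 were PRSS23, WWC1, ETV1, SETBP1, STOX2, NHSL1, CFTR, NFIA, LURAP1L and MEIS1, with r from 0.992 to 0.996. MUC19 held place 81 and PRLR, the prolactin receptor, place 228 in that order. Without 1-month replicate 2 the order was another one. Of 9647 genes the nearest 10 over those 8 libraries were SRD5A3, NDUFA4, TFAP2B, Xxylt1, DPP10, DNAJC1, PRSS23, ADGRA3, RPS27L and MTCH2, with r from 0.964 to 0.981, so that PRSS23 was the only gene in both sets of 10. MUC19 then held place 621 and PRLR place 26. The genes of the set over 8 libraries were named after their values were seen. PRSS23, a secreted serine protease, was at 31.2, 4.59 and 30.5 CPM at 1 month, 48.9, 60.8 and 53.9 CPM at 12 months, and 39.6, 50.9 and 40.0 CPM at 24 months. It was highest at 12 months and overlapped between 12 and 24 months. ETV1, an ETS-family transcription factor, was at 160 and 127 CPM in 1-month replicates 1 and 3 and at 1.25 CPM in replicate 2. Its levels were 425, 456 and 504 CPM at 12 months and 335, 323 and 223 CPM at 24 months, with no overlap between these ages. CFTR, the chloride channel of secretory and duct cells, was at 13.6, 0.208 and 10.7 CPM at 1 month, 30.2, 31.2 and 34.0 CPM at 12 months, and 23.7, 23.0 and 26.0 CPM at 24 months. PRSS23, ETV1 and CFTR shared the order of the age means with LOC102181752. They were chosen for their likeness over these same libraries, so the shared order is not a separate result.

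Over the 6 older libraries the nearest 10 of 9250 genes were PIK3CG, Golph3, CD55, MBD2, MGAT5, PTTG1IP, SMARCE1, WDR20, WWC1 and GNAS, with r from 0.953 to 0.994. MUC19 held place 4786 there. WWC1, which encodes the Hippo pathway protein KIBRA, was the gene shared with the set over 9 libraries. It was at 79.5, 2.99 and 57.8 CPM at 1 month, 166, 165 and 168 CPM at 12 months, and 141, 156 and 130 CPM at 24 months. PIK3CG, a phosphoinositide 3-kinase subunit of leukocytes, was at 55.1, 113 and 78.5 CPM at 1 month and at 11.4 to 15.2 CPM in the older libraries, so that its r turned to −0.814 over 9 libraries. With 6 libraries and 9250 genes, this order is a description of these libraries.

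PIP is named for its induction by prolactin, and the receptor of prolactin, a factor downstream of it and a binding partner of PIP were read in the same libraries. They were chosen with the values of LOC102181752 known, and no test is given. PRLR was at 36.4, 2.33 and 36.0 CPM at 1 month, 202, 259 and 199 CPM at 12 months, and 151, 110 and 125 CPM at 24 months. Its 3 ages did not overlap and stood in the same order as those of LOC102181752. ETV1, CFTR and SLC12A2 showed that order without overlap as well. The share of all genes that do so was not counted, so this is a description only. The mean of PRLR at 24 months was 0.586 times that at 12 months, against 0.482 times for LOC102181752. Between both genes r was 0.972 over 9 libraries (place 228 of 9835 genes), 0.957 over 8 without 1-month replicate 2 (place 26 of 9647 genes) and 0.725 over the 6 older libraries (place 478 of 9250). At 24 months the order within the age differed, since PRLR was lowest in replicate 2, where LOC102181752 was highest.

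STAT5B, a transcription factor activated downstream of the prolactin receptor, stood in another order, with 66.6, 164 and 62.4 CPM at 1 month and 30.3 to 36.6 CPM in the older libraries. AZGP1, which encodes zinc-alpha-2-glycoprotein, the binding partner of PIP, was at 184, 1.57 and 37.5 CPM at 1 month, 500.0, 813 and 729 CPM at 12 months, and 741, 942 and 435 CPM at 24 months. AZGP1 was higher in each older library than in any 1-month library and overlapped between 12 and 24 months.

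**Figure D4:**
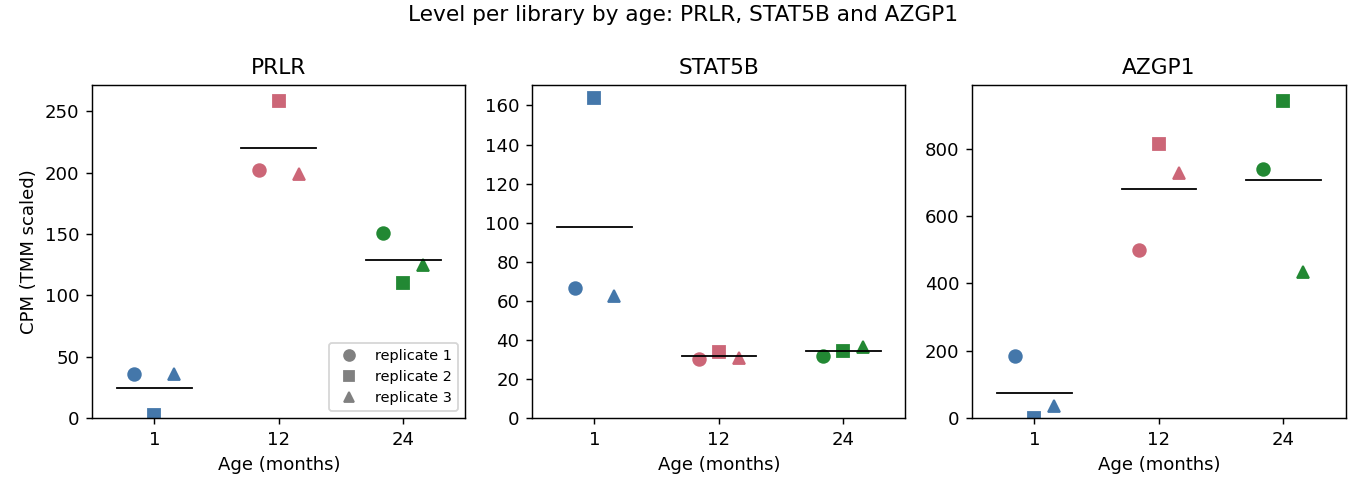
CPM (TMM scaled, linear axes from 0) of PRLR, STAT5B and AZGP1 against age in months, with 1 point per library, marker shapes for replicates and a line at the mean of each age. PRLR is highest at 12 months (199 to 259 CPM) and lower at 24 months (110 to 151 CPM), STAT5B is highest at 1 month, and AZGP1 overlaps between 12 and 24 months.

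A transcript assembled by the authors, TCONS_00013124, carried the symbol PIP and the same product name, taken from sheep. Its counts were 48.6, 0 and 22.7 at 1 month, 454, 1117 and 687 at 12 months, and 473, 307 and 1297 at 24 months. It was far less counted than LOC102181752, and its 12- and 24-month ranges overlapped. Its log2 fold change was 4.85 at 12 months against 1 month (SE 1.21, adjusted p = 0.0386 in edgeR) and 4.70 at 24 months against 1 month (SE 1.25, adjusted p = 0.0390 in edgeR). Without 1-month replicate 2 they were 4.18 (adjusted p = 0.00336, edgeR) and 4.06 (adjusted p = 0.00826, edgeR). Both transcripts may share reads, so its counts are uncertain. Its p values against 1 month may therefore not be independent of the choice of LOC102181752. Adding it to LOC102181752 gave a 24-month against 12-month log2 fold change of −0.998.

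In the RefSeq gene order of the goat assembly ARS1.2, the gene next to LOC102181752 is LOC102182197, which has the same product name. It reached at most 18.8 counts (1.01 CPM) and passed 3 counts in 4 of 9 libraries. The high counts of the gland thus lay on LOC102181752 and not on its neighbour of the same name, as far as the counting separated near-identical copies. The nearby genes TAS2R39, a bitter taste receptor, and LOC102183208 and LOC108635908, both olfactory receptor genes, had 0 counts in all 9 libraries. The neighbours LOC102182475, a long non-coding RNA, and LOC102183485, a pseudogene, had no row in the table analysed here.

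Over the 6 older libraries LOC102181752 was the fourth most counted gene, with a mean of 25233 CPM. The 10 most counted genes were MUC19, SPLUNC2B, ZG16B, LOC102181752, TCONS_00080580, LATH, COX1, IGHA1, PIGR and EEF1A1. They held secreted products (MUC19, SPLUNC2B, ZG16B and LATH), the heavy chain of immunoglobulin A (IGHA1), the receptor that carries it across epithelium (PIGR), a mitochondrial respiratory subunit (COX1) and a translation factor (EEF1A1). At 24 months against 12 months 4 of the 10 had a fitted value below 0 and 6 above 0, and none was called. Of these, LOC102181752 had the lowest log2 fold change, −0.999, and the next lowest was −0.31 for COX1. SPLUNC2B, a salivary protein of the BPI fold family, had the highest at 2.37 (SE 1.17, adjusted p = 0.458 in edgeR). SPLUNC2B was at 29221, 35673 and 316 CPM at 12 months and 152190.2, 127288 and 46006 CPM at 24 months. Its direction from 12 to 24 months was thus opposite to that of LOC102181752. Both genes were lowest at 1 month, where SPLUNC2B was at 9.78 to 56.5 CPM.

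**Figure D5:**
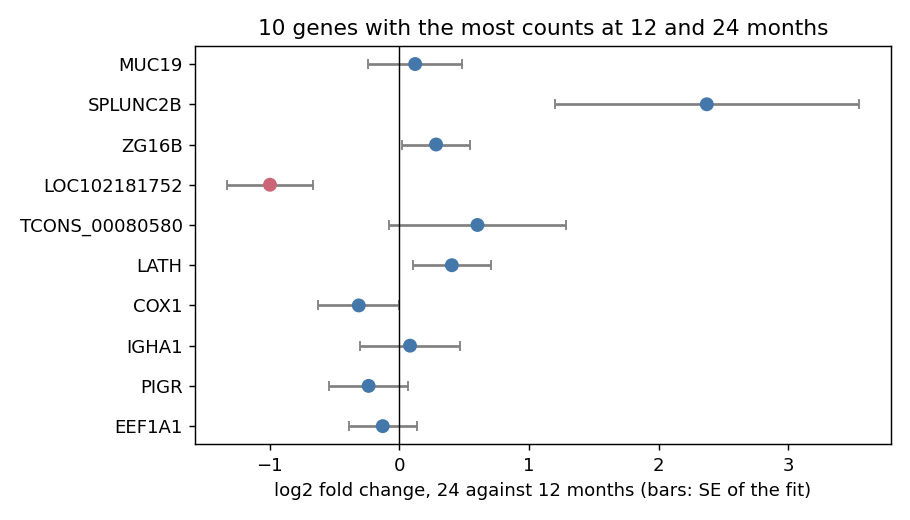
Log2 fold change at 24 against 12 months (x axis) with the SE of the edgeR fit for the 10 genes with the highest mean CPM over the 12- and 24-month libraries, listed from the highest mean at the top. LOC102181752, in red, is lowest at −0.999, SPLUNC2B is highest at 2.37 with the widest error bar, and none of the 10 was called.

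The list of other secreted gland products held 51 genes, of which 42 were in the table and 30 passed the filter on low counts in each comparison. At 12 months against 1 month 4 of the 30 rose and 0 fell, beside 1.98% of all tested genes called higher and 9.26% called lower. At 24 months against 1 month 6 rose and 0 fell, beside 3.93% called higher and 8.79% called lower. The transcript with the symbol PIP, which may share reads with LOC102181752, is 1 of the calls at both ages. That call may not be independent of the choice of LOC102181752. At 24 months against 12 months 0 were called and 5 of 30 had an unadjusted p under 0.05, beside 10.2% of all tested genes. Of these 5, JCHAIN, MUC15, MUC7 and CRISP3 were lower at 24 months (log2 fold changes −1.14, −1.02, −0.949 and −0.738), and WFDC2 was higher (0.942). These 5 were named for their p values. Of all 30 list genes 15 had a fitted value above 0 and 15 below 0, with a median of 0.04, equal to that of all tested genes. MUC7 ranged from 1393 to 1811 CPM at 12 months and from 504 to 1196 CPM at 24 months. The median log2 fold change of the 30 was 2.48 at 12 months and 2.49 at 24 months against 1 month, where that of all tested genes was −0.02 and −0.01. Without 1-month replicate 2 the list medians were 1.995 and 2.04, and those of all tested genes were −0.015 and 0.047. The counts called in the list, all higher, were then 13 and 14. Beside these, 330 of all 15772 tested genes were called higher and 1590 lower at 12 months. At 24 months 668 of 15907 were called higher and 1475 lower. Without any 1 of the 12-month libraries 0 were called at 12 months, in the list or over all genes. The 12-month count of the list was 1, called higher, without 1-month replicate 3, beside 113 of all 15675 genes called higher and 1262 lower. Without 1-month replicate 1 the list had 2 calls higher and 1 lower at 12 months, and 6 higher and 2 lower at 24 months. Over all genes 216 of 15716 were then called higher and 1318 lower at 12 months. At 24 months 438 of 15854 were called higher and 1258 lower. The list genes called lower were LCN2, an iron-sequestering lipocalin, at both ages and TFF2, a trefoil peptide, at 24 months. Markers of neutrophils and red cells summed to 601 CPM in 1-month replicate 3 and to at most 28.7 CPM in any other library, and their part in these calls was not tested. The 24-month count of the list fell to 2 without 1-month replicate 3 or 24-month replicate 2, and to 0 without 24-month replicate 3. In these 3 fits 220 of 15793, 56 of 15893 and 36 of 15852 genes were called higher, and 1153, 296 and 214 lower.

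LPO, the lactoperoxidase of saliva and milk, rose by a log2 fold change of 6.25 at 12 months (SE 1.15, adjusted p = 0.0176 in edgeR). It stood at 174, 9.60 and 98.1 CPM at 1 month and at 4377 to 9689 CPM at 12 months. At 24 months LPO ranged from 6636 to 22455 CPM, with a log2 fold change of 7.22 against 1 month (adjusted p = 0.0130 in edgeR). MUC5B, a gel-forming salivary mucin, rose by 5.24 at 12 months and by 6.96 at 24 months, where its libraries ran from 0.524 to 136 CPM and overlapped with 1 month. CST6, a cystatin, rose by 2.97 and 3.68 at low levels. It was at 0.244 to 0.665 CPM at 1 month, 2.44 to 5.13 CPM at 12 months and 2.84 to 8.65 CPM at 24 months. MUC16, a membrane mucin, and MUC5AC, a gel-forming mucin, were called higher at 24 months, with log2 fold changes of 4.23 and 2.98, although 24-month replicate 2 of MUC5AC (1.25 CPM) lay within the 1-month range. The most counted genes of the list were not called: MUC19 had adjusted p values of 0.230 and 0.215, ZG16B 0.312 and 0.270, and PIGR 0.0839 and 0.0805 in edgeR at 12 and 24 months against 1 month. Without 1-month replicate 2 the log2 fold changes at 12 and 24 months were 5.64 and 6.64 for LPO, 4.83 and 6.57 for MUC5B, and 2.58 and 3.34 for CST6, and those of MUC16 and MUC5AC at 24 months were 3.60 and 3.25, all of them called. MUC19 and PIGR then passed the test at both ages, with log2 fold changes of 2.34 and 2.52 for MUC19 and 3.94 and 3.77 for PIGR, and ZG16B passed at 24 months, at 2.22. For MUC19, ZG16B and PIGR, 1-month replicate 2 was at 50.2, 8.98 and 4.66 CPM, so the spread at 1 month was wide.

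The list of acinar secretory machinery held 37 genes, all in the table, with 33 tested against 1 month. At 12 months 3 of 33 rose and 0 fell, beside the 1.98% of all tested genes called higher and 9.26% called lower. At 24 months 5 rose and 2 fell, beside 3.93% and 8.79%. The list medians were 2.05 and 1.71 on the log2 scale, or 1.48 and 1.10 without 1-month replicate 2. The called genes at 12 months were CHST4, a sulfotransferase of mucin sugars (log2 fold change 4.52), CREB3L1, a transcription factor of secretory cells (2.26), and GALNT7, which takes part in mucin-type glycosylation (2.19). CHST4 was low at 1 month, at 0.0697 to 1.25 CPM, and reached 7.43 to 31.5 CPM at 12 months. At 24 months CHRM1, a muscarinic acetylcholine receptor, rose by 4.26, CHST4 by 3.65, GALNT6, another glycosyltransferase of that family, by 3.05, CREB3L1 by 2.90 and RAB3D, a small GTPase of secretory granules, by 2.59. C1GALT1 and GCNT4, which extend and branch the sugars of mucins, fell by 2.56 and 2.55 on the log2 scale at 24 months. XBP1, AQP5 and SLC12A2 were not called, with log2 fold changes of 2.51, 2.30 and 2.57 at 12 months and adjusted p values of 0.0637, 0.279 and 0.106 in edgeR. At 24 months against 12 months 0 of 32 tested were called and 6 had an unadjusted p under 0.05, beside 10.2% of all tested genes, with SLC12A2 at −0.90 (SE 0.267, adjusted p = 0.458 in edgeR). Without 1-month replicate 2, 4 of 33 were called higher and 2 lower at 12 months, and 12 higher and 2 lower at 24 months against 1 month. Over all tested genes 330 of 15772 were then called higher and 1590 lower at 12 months. At 24 months 668 of 15907 were called higher and 1475 lower. CREB3L1 and GALNT7 were then no longer called at 12 months, with log2 fold changes of 1.74 and 1.75 (adjusted p = 0.00112 and 0.00160 in edgeR), while CHST4 was called at 3.88. At 24 months CHRM1, CHST4, GALNT6, CREB3L1 and RAB3D were called at 3.63, 3.05, 2.51, 2.42 and 2.099, and C1GALT1 and GCNT4 fell by 2.87 and 2.65 on the log2 scale. Without 1-month replicate 3 the counts called at 12 and 24 months were 0 and 1, the latter lower. Without 1-month replicate 1 the counts called were 1 and 4, all higher. The counts over all genes in the fits without 1-month replicate 1 or 3 were, at 12 months, 216 higher and 1318 lower of 15716, and 113 and 1262 of 15675. At 24 months they were 438 and 1258 of 15854, and 220 and 1153 of 15793. Without any 1 of the 12-month libraries 0 were called at 12 months. The 24-month counts without 24-month replicates 1, 2 and 3 were 2 (1 higher and 1 lower), 0 and 0. Over all genes 1310 of 15868, 352 of 15893 and 250 of 15852 were called in these fits.

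These counts depended on scaling. On total counts, where the median log2 fold change of all genes moved from −0.02 to −0.51 at 12 months and from −0.01 to −0.71 at 24 months against 1 month, the share of all called genes that were lower rose from 82.4% to 95.3% and from 69.1% to 93.7%. The machinery list then had 1 gene called higher and 3 lower at 12 months, and 0 higher and 2 lower at 24 months. Of the secreted products, LPO, MUC5B, CST6 and PIP were called higher on that scale at 12 months, and LPO, MUC5B and CST6 at 24 months. LOC102181752 stood in the same order of ages on both scales.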

How the data were processed

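RNA was depleted of ribosomal RNA, made into strand-marked (dUTP) libraries and sequenced on an Illumina HiSeq instrument. The submitters' processing notes name Bowtie2 2.2.8, TopHat2 2.1.1 and Cufflinks, and the authors quantified transcripts with RSEM. The genome build is not given in the sources used here, so no coordinates are printed. The authors deposited RSEM expected counts for each transcript and library, not divided by depth or length, and 3.49% of the values above 0 were whole.

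Of 42686 transcripts that carried an NCBI gene identifier, 42652 (99.9%) matched the reference gene table. Transcripts were summed to 22425 genes and rounded. Each pair of ages was fitted with edgeR 4.0.16 (R 4.3.3; filterByExpr, TMM, quasi-likelihood test, Benjamini-Hochberg adjustment), with calls at adjusted p below 0.05 and a log2 fold change beyond 2 in size. Ratios within libraries were compared with exact permutation tests (scipy 1.17.1), and likeness on log2(CPM + 1). Fits were tested on simulated data. Alternatives were other scalings, no filter, DESeq2 1.42.0, all libraries in 1 fit, a replicate block, transcripts in place of genes, library sizes without the 10 most counted genes, and leaving out each library. Of the marker list, PIP was left out of the acinar sum.

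The gene and both lists were chosen with earlier results of these data known. The text names LOC102181752, MUC19, the 10 genes most like it over 9 and over 6 libraries, the 10 most counted genes, up to 3 neighbours on each side, genes of the same product, and from each list up to 4 called genes with the largest fold and up to 3 uncalled with the highest level. Other called list genes, PRLR, STAT5B and AZGP1 were named after their values were seen.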

Additional observations from a re-analysis of the deposited data

How the results depend on the processing

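The lower level of LOC102181752 at 24 than at 12 months kept its direction and did not pass the test in any of 16 alternatives: the log2 fold change ran from −1.21 to −0.998 over 10 settings (adjusted p 0.144 to 0.864, edgeR and DESeq2) and from −1.40 to −0.85 when 1 library was left out. With the replicate block it was −1.07 (adjusted p = 0.527, edgeR). The ratio to MUC19 at 24 against 12 months (−1.24 on the log2 scale) was −1.33 with the most counted transcript of each gene and −1.61 to −0.93 without 1 library, and with ZG16B, AQP5, BHLHA15 or SLC12A2 in place of MUC19 the ratio was −1.37, −1.52, −1.57 or −0.16; paired by replicate number (the block) it was −1.24 with an exact permutation p of 0.25. Same-numbered libraries did not deviate together in all pairs (r from −0.165 to 0.302), and the labels do not say that numbers pair animals. Calls among secreted products at 12 against 1 month (4 as reported) were 14 with DESeq2 and 1 with the replicate block; at 24 against 1 month (6) they were 15 with DESeq2, 3 on total counts and 3 with the block. Calls in the machinery list at 12 against 1 month (3) were 12 with DESeq2, 8 with all 9 libraries in 1 fit and 0 with the block. At 24 against 1 month (7) they were 14 with DESeq2, 11 with all 9 libraries and 2 on total counts. The calls over all genes differed between settings too. At 12 against 1 month 304 of 15369 were called higher and 1423 lower as reported. With DESeq2 they were 597 and 1761 of 15277, with all 9 libraries 426 and 1621 of 15737, and with the block 78 and 688 of 15369. At 24 against 1 month 607 of 15442 genes were called higher and 1357 lower as reported. With DESeq2 they were 863 and 1711 of 15364, and with all 9 libraries 703 and 1680 of 15737. On total counts they were 149 and 2231 of 15442, and with the block 473 and 1114. Leaving out 1 library gave 0 to 13 and 0 to 14 calls for secreted products and 0 to 6 and 0 to 14 for the machinery. Over all genes it gave 0 to 1920 calls at 12 months and 250 to 2143 at 24 months against 1 month. A fit that leaves out a library has fewer samples, and otherwise the cause was not tested. Over all genes, leaving out any 12-month library gave 0 calls at 12 against 1 month, and leaving out 24-month replicate 1 gave 175 calls at 24 against 12 months, where 0 were called otherwise except 15 with DESeq2 and 5 with the block. Both lists had 0 calls at 24 against 12 months in all 13 alternatives run. Transcript lengths were not used here, so levels are not comparable between genes.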
